A study of Homo sapiens with 8 samples.

Results

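The genes that encode the mitochondrial respiratory chain and ATP synthase in the nucleus were examined in G401, a cell line established from a renal rhabdoid tumor. They were the protein-coding nuclear genes whose GENCODE symbol begins with NDUF, UQCR, ATP5 or COX followed by a digit, together with SDHA, SDHB, SDHC, SDHD and CYC1. The rule used names and no measured value, and it found 108 of the 69215 genes listed for each library. G401 cells lack SMARCB1, which belongs to the core of the mSWI/SNF complexes that remodel chromatin. The study compared RNA levels with and without re-expressed SMARCB1 by total RNA sequencing of 8 libraries in 4 groups of 2. In the groups SMARCB1 Dox and SMARCB1 DMSO, G401 cells carrying a Tet-On SMARCB1 transgene received 0.1 µg/ml doxycycline (Dox) or its solvent dimethylsulfoxide (DMSO) for 12 h. In the groups GFP Dox and GFP DMSO, G401 cells carrying a Tet-On GFP transgene received the same treatments. All 4 groups thus shared the loss of the endogenous gene, and whether each line was a single clone was not given in the sources used here. The lines were established separately, so that the transgene and every other difference between the lines cannot be told apart when the lines are compared.

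Libraries held 29632090 to 37597477 counts assigned to genes, of which the 108 genes took 0.441% to 0.498%. Levels are given as CPM, the counts of a gene divided by those assigned to all genes of the library (after scaling with edgeR's TMM factors), times 1000000. SMARCB1 had 30474 and 29383 counts in SMARCB1 Dox, 10 and 21 in SMARCB1 DMSO and 0 in each GFP library, as the labels of the SMARCB1 libraries and of the GFP line state. GFP reads were not analysed here, so that the Dox and DMSO labels within the GFP line were not checked. VIM, KRT8 and KRT18, which rhabdoid cells express, lay between 212 and 1309 CPM. Of 13 markers of blood, endothelium, kidney tubule and muscle, CD3E and MYH7 had 0 counts in all 8 libraries, and the others reached at most 0.651 CPM. The share of counts from mitochondrial DNA ranged from 18.9% to 27.9% and peaked in SMARCB1 DMSO replicate 1.

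Oxidative phosphorylation passes electrons from NADH (complex I) and succinate (complex II) through ubiquinone, complex III and cytochrome c to oxygen at complex IV, and uses the proton gradient so built to make ATP at complex V. Most subunits are encoded in the nucleus, and a small set of core subunits is encoded in mitochondrial DNA. Nuclear respiratory factor 1 (NRF1), the ETS family factor GABP and YY1 are textbook activators of many of these nuclear genes. By this rule complex I had 46 members, complex II 4, complex III 10, complex IV 28 and complex V 20. The names include subunits, the NDUFAF and COX assembly factors, tissue-specific isoforms, the ATP synthase inhibitor ATP5IF1, retrocopies and readthrough transcripts.

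The sequences before the transcription start were examined because many of these genes shared a direction between the lines. RefSeq start sites (GRCh38.p14) were matched for 86 of the 108 genes, with windows from 250 bases before to 50 bases after the start. The NRF1 motif GCGCANGCG was found on either strand in 30.2% of these windows and in 9.69% of the windows of all protein-coding symbols. The ETS motif CCGGAAG was found in 27.9% against 12.9%, and the YY1 motif AAGATGGCG in 10.5% against 2.45%. No match overlapped a match to another of these motifs. A total of 44 windows, or 51.2%, held an NRF1 or an ETS motif, against 20.7% of the 21612 windows of protein-coding symbols. Each member entered with 1 window, whereas a symbol could enter this background with several. The background was also not limited to expressed genes and included the members. The shares are descriptions of letters in these windows, not of bound sites. The following stretches lie before the start, contain no annotated exon, and are written from 5′ to 3′ on the strand of the gene with motif matches in capitals. The first set gives 4 examples with an ETS motif, all higher in the SMARCB1 line in both comparisons with the GFP line. Stretches of ATP5MJ and UQCR10, called higher in both, held no motif and are not shown, though their windows held an NRF1 motif. An ETS motif also lay in the windows of NDUFS1, called lower in both, and COX15, called lower with Dox.
COX6B1 (chr19:35648073-35648322, plus strand): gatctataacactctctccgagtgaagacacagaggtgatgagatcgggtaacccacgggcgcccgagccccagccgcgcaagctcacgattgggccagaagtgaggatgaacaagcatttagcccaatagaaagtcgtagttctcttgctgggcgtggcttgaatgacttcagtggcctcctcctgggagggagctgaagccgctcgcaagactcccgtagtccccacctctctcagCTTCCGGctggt
COX8A (chr11:63974370-63974619, plus strand): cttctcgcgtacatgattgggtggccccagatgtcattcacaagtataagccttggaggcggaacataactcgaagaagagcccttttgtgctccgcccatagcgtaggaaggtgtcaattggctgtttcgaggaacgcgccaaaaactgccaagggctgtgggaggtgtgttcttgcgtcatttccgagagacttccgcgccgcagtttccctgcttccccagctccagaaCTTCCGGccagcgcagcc
NDUFA1 (chrX:119871734-119871831, plus strand): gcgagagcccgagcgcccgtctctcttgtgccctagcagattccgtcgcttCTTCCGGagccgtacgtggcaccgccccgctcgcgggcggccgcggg
SDHB (chr1:17054033-17054282, minus strand): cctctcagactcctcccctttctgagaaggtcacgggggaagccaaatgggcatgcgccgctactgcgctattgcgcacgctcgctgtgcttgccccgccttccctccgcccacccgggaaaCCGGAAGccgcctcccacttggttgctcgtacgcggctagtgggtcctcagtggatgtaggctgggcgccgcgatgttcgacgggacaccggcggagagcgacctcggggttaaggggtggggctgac
In the second set, UQCRFS1 held an NRF1 motif, and SDHA held 3 NRF1 motifs in the stretch shown and 4 in its whole window.
UQCRFS1 (chr19:29213152-29213234, minus strand): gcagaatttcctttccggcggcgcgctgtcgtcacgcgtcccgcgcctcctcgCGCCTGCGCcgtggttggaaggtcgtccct
SDHA (chr5:218154-218297, plus strand): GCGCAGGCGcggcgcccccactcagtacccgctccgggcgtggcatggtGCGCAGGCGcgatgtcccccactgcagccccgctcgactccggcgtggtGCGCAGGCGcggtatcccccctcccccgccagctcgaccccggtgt
The third set shows COX20, the gene with the largest called response to SMARCB1, and NDUFS4, the gene with the largest ratio between the DMSO groups among those called higher. None of the 3 motifs was found in the stretches shown, though the whole window of NDUFS4 held a YY1 motif after the start.
COX20 (chr1:244835226-244835475, plus strand): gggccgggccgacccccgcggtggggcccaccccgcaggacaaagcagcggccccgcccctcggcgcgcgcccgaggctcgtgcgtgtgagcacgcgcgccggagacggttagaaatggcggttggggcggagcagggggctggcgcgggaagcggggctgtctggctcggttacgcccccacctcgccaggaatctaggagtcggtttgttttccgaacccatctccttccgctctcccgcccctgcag
NDUFS4 (chr5:53560389-53560632, plus strand): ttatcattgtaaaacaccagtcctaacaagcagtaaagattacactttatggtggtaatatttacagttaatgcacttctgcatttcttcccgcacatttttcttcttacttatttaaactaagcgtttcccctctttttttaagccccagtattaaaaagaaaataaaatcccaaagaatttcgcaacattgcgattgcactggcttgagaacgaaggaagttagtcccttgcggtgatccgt
Among the 15 genes with a window that were called higher in both line comparisons, 7 (46.7%) held an ETS motif and 4 (26.7%) an NRF1 motif. Among the other 71 genes with a window, 17 (23.9%) held an ETS motif and 22 (31%) an NRF1 motif. The 15 genes were picked by calls in these same data and are few, and the difference in shares was not tested.

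Of the 108 genes, 100 passed edgeR's filter on low counts and were tested. The 8 others were the isoforms COX4I2, COX6A2, COX7A1, COX7B2 and COX8C, the readthrough transcripts NDUFC2-KCTD14 and ATP5MF-PTCD1, and the retrocopy ATP5MGL. The 5 isoforms, most of them known from lung, muscle or testis, had 0 counts in all 8 libraries. A count of 0 allows up to 0.0798 to 0.101 CPM per library (3 counts, without the TMM factors, counting error only). The ubiquitous partners of these isoforms were expressed, with COX6A1 at 141 to 189 CPM and COX8A at 36.7 to 56.0 CPM. COX6B2, the testis isoform of COX6B1, was the exception and had reads in every library. NDUFA4L2, a paralog of the complex IV subunit NDUFA4 that is known from hypoxic cells, lay at 0.0909 to 0.546 CPM, while NDUFA4 lay at 132 to 161 CPM. UQCRHL, a retrocopy of UQCRH, lay at 0.747 to 1.63 CPM.

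Per kilobase of exon, the most abundant were ATP5F1B, the catalytic beta subunit of ATP synthase, at 142 CPM per kb, COX6A1 at 127, and CYC1, cytochrome c1, at 106 (means of 8 libraries). Among subunits, the median level was 5.38 CPM per kb for complex I, 34.4 for complex II, 23.4 for complex III, 15.6 for complex IV and 15.3 for complex V. Assembly factors had a median of 3.997 CPM per kb over 17 genes, against 9.30 over 48 accessory subunits and 8.36 over 13 core subunits. Levels within a complex spanned a wide range. In complex I, NDUFA1 lay at 73.2 and NDUFB8 at 0.669 CPM per kb, and in complex V, ATP5F1B stood against ATP5MG at 2.83. The annotated exonic length enters these values and varied widely. ATP5MG has 8358 annotated exonic bases and NDUFA1 has 421. NDUFB8 shares 33.8% of its exonic bases with an unnamed gene on the same strand, and 16.3% lie opposite HIF1AN. Whether this overlap lowered the count of NDUFB8 was not tested, so its place as the lowest subunit of complex I is uncertain. The members were short genes, with a median exonic length of 2711.5 bases against 5407.5 for all tested protein-coding genes, and a GC content of 46.9% against 48.1%.

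Near-identical copies and overlapping genes limited some of the counts. A total of 55 members had at least 1 pseudogene named after them, 199 in all, and COX6C had 17. These pseudogenes held 3641 counts over the 8 libraries, against 1263987 for the members, but reads that fit several places were not assigned. Of the 3641 counts, 1740 lay on pseudogenes of UQCRFS1, against 21268 for UQCRFS1 itself. Exonic bases were shared with another gene on the same strand by 35 members and on the opposite strand by 42. Whether the counting used strand was not given in the sources used here.

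**Figure D1:**
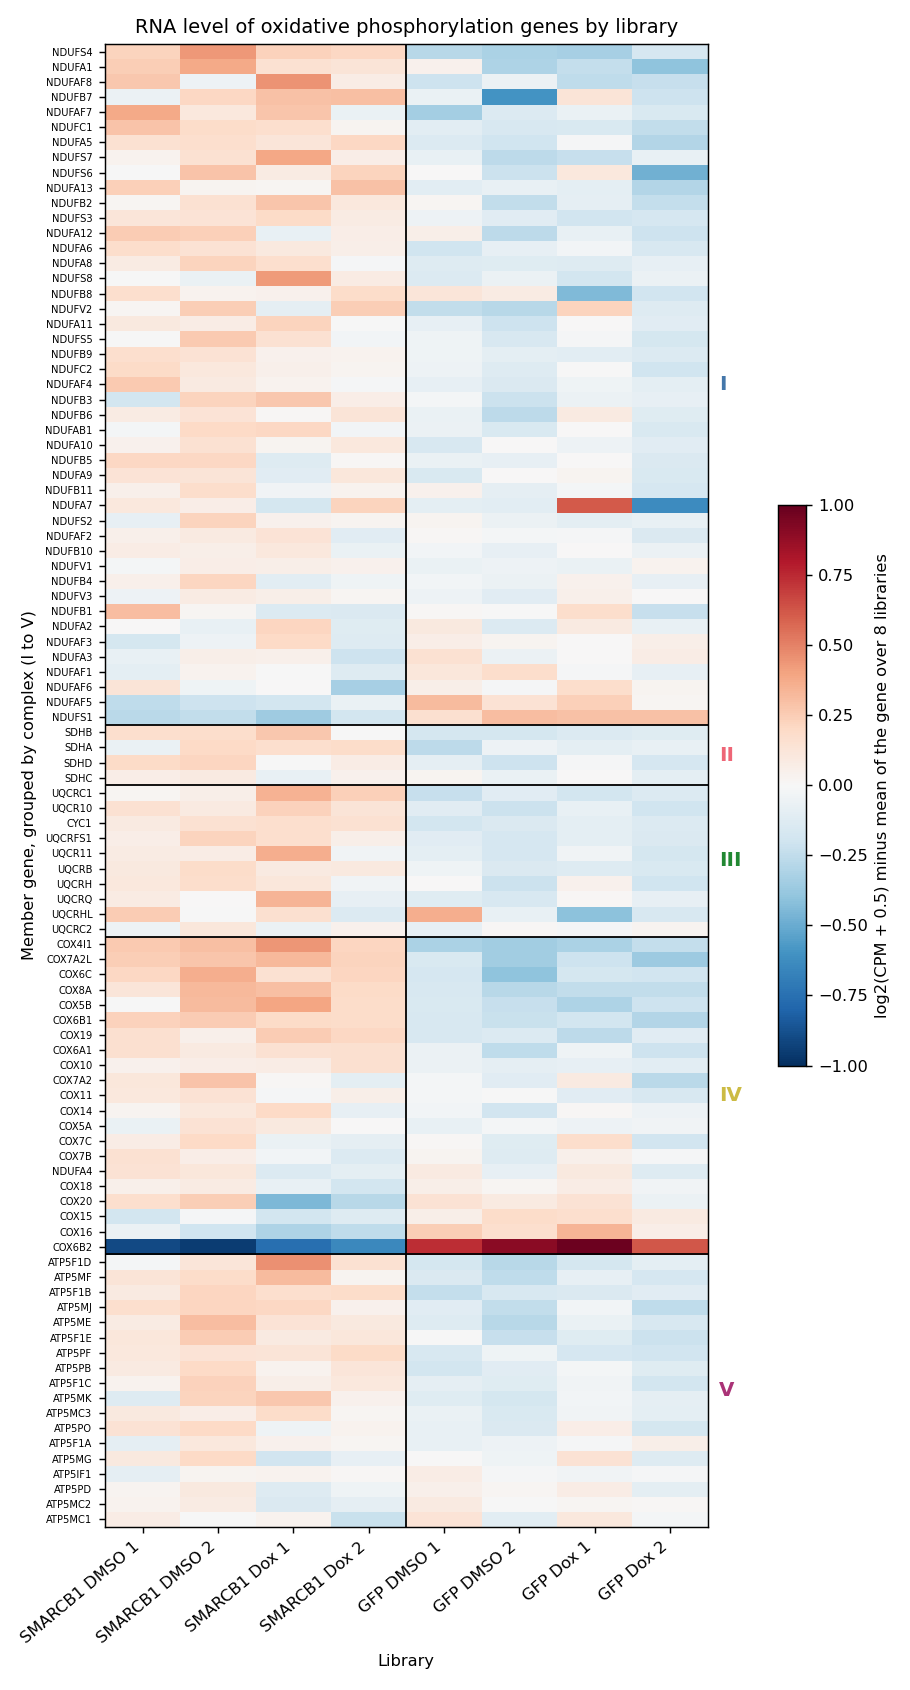
Level of the 98 genes that averaged at least 1 CPM, as log2(CPM + 0.5) minus the mean of the gene over the 8 libraries (colour), with genes in rows by complex and libraries in columns. The vertical line separates the SMARCB1 line (left) from the GFP line (right), and most rows are redder on the left, whereas the DMSO and Dox columns of a line resemble each other. COX6B2 shows the reverse pattern.

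Re-expression of SMARCB1 for 12 h left most of these RNAs near their starting level. Between SMARCB1 Dox and SMARCB1 DMSO, 3 of the 100 tested genes (3%) were called, at an adjusted p under 0.05 in edgeR's quasi-likelihood test with Benjamini-Hochberg adjustment over all 15931 genes. Across all genes tested, 14% were called (8.33% higher and 5.69% lower), so that the share was below that of the background. DESeq2 also called 1 gene higher and 2 lower. The complex IV assembly factor COX20 and the complex I subunit NDUFB5 fell, and the complex III core protein UQCRC1 rose. In RNA from whole cultures, fewer cells of a type and less RNA per cell cannot be told apart. The median log2 fold change of the 100 genes was -0.05, against 0.00 for all genes tested, with 40 genes positive and 60 negative. By complex, the medians were -0.05 (complex I), -0.06 (II), 0.00 (III), -0.05 (IV) and -0.06 (V). Of the 100 genes, 89 had a 95% confidence interval within 1.5-fold in either direction and 98 within 2-fold. With scaling to library totals the median became 0.05, beside a median of 0.09 for all genes, and 3 genes were called higher and 1 lower.

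COX20, which brings the newly made subunit COX2 to its copper site during the assembly of complex IV, lies on chromosome 1 (244835616 to 244845057, plus strand, GRCh38). The SMARCB1 DMSO libraries had 29.5 and 31.1 CPM and the SMARCB1 Dox libraries 19.1 and 21.5 CPM, against 29.0 and 27.9 CPM for GFP DMSO and 29.0 and 25.2 CPM for GFP Dox. Both SMARCB1 Dox libraries lay below each of the 6 other libraries. Group means were 30.3 ± 1.16 CPM without and 20.3 ± 1.73 CPM with Dox (SD, n = 2), and the log2 fold change was -0.58 (standard error (SE) 0.10, edgeR, adjusted p 0.000466). The call held under all 14 alternatives, with log2 fold changes from -0.67 to -0.49. However, 76.6% of the exonic bases of COX20 lie opposite HNRNPU, an abundant RNA-binding protein gene on the other strand, so that the counts of COX20 were uncertain. HNRNPU lay at 420 to 560 CPM, with a log2 fold change of 0.09 in the same comparison (edgeR, adjusted p 0.582).

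NDUFB5, an accessory subunit of the membrane arm of complex I on chromosome 3 (179604690 to 179627647), had 129.6 and 130.1 CPM in SMARCB1 DMSO and 103 and 113 CPM in SMARCB1 Dox. The GFP line lay at 107 and 106 CPM in DMSO and 113 and 102 CPM in Dox, so that the SMARCB1 DMSO libraries were the ones apart. It fell by 0.27 on the log2 scale (SE 0.08, edgeR, adjusted p 0.0307). UQCRC1, a large core protein of complex III on chromosome 3 (48599002 to 48610976), had 75.6 and 77.3 CPM in SMARCB1 DMSO and 94.9 and 88.1 CPM in SMARCB1 Dox. In the GFP line it lay at 63.4 and 68.7 CPM in DMSO and 65.4 and 67.5 CPM in Dox, below all 4 libraries of the SMARCB1 line. It rose by 0.26 on the log2 scale (SE 0.08, edgeR, adjusted p 0.0338). NDUFB5 and UQCRC1 each kept their call under 8 of 14 alternatives. Both lost it with a GC correction (edgeR, adjusted p 0.124 and 0.152). Only COX20 was called without SMARCB1 DMSO replicate 1, without SMARCB1 DMSO replicate 2 or without SMARCB1 Dox replicate 1, and 5 genes were called without SMARCB1 Dox replicate 2.

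**Figure D2:**
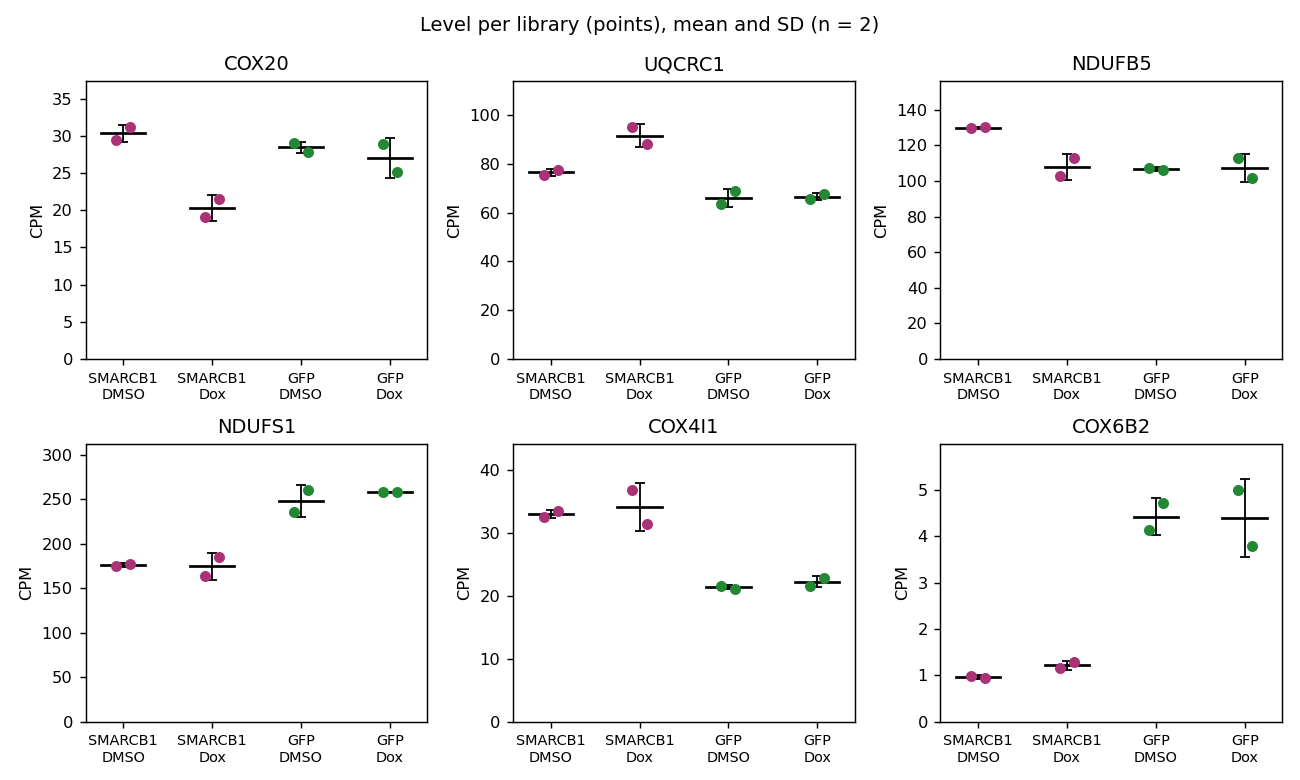
CPM of COX20, UQCRC1, NDUFB5, NDUFS1, COX4I1 and COX6B2 in the 4 groups (points, libraries, purple for the SMARCB1 line and green for the GFP line), with the mean (line) and the SD (bar, n = 2). COX20 is low only in SMARCB1 Dox (19.1 and 21.5 CPM), whereas COX4I1, NDUFS1 and COX6B2 differ between the lines with and without Dox.

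Among nuclear-encoded subunits, those with the central roles were read by group. Of the 13 core subunits of complexes I to III, 0 were called (against 14% of all genes), with a median log2 fold change of -0.01 and a range from -0.17 to 0.30 (1 at an unadjusted p under 0.05 in edgeR, and 0 called by DESeq2). Of the 48 accessory subunits, NDUFB5 and UQCRC1 were called. UQCRC1, though named a core protein of complex III, was grouped here with the accessory subunits. The 5 subunits of the F1 part of ATP synthase (median 0.02) and the 12 of its Fo part and stalks (median -0.08) gave 0 calls in edgeR and in DESeq2, with 1 and 2 at an unadjusted p under 0.05 in edgeR. These groups are small to be read against a background of 14%. SDHA, SDHB, SDHC and SDHD, the 4 subunits of complex II, had log2 fold changes of 0.10, -0.03, -0.09 and -0.17. ATP5IF1, which inhibits ATP hydrolysis by complex V, had 59.7 and 64.8 CPM in SMARCB1 DMSO and 65.1 and 64.1 CPM in SMARCB1 Dox. NDUFA4 came closest to a call among subunits not called, with 161 and 158 CPM in SMARCB1 DMSO and 132 and 136 CPM in SMARCB1 Dox (log2 fold change -0.25, edgeR, adjusted p 0.0618).

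Dox alone was assessed in the GFP line. Between GFP Dox and GFP DMSO, 0 of the 100 genes were called by edgeR or by DESeq2 and 0 had an unadjusted p under 0.05 in edgeR, and of all 15931 genes 0% were called. The median log2 fold change was 0.02, and 91 of the 100 genes had a 95% interval within 1.5-fold. The difference between the Dox effects in the lines was then tested directly. It was called for COX20 alone, 1 of the 100 genes (1%), against 4.71% of all genes (3.07% more positive and 1.64% more negative in the SMARCB1 line). The log2 fold change of COX20 was -0.07 in the GFP line and the difference was -0.50 (SE 0.14, edgeR, adjusted p 0.0453). This call was lost under 11 of 17 alternatives, among them DESeq2 (adjusted p 0.0526), scaling to library totals (edgeR, adjusted p 0.123) and leaving out any 1 library other than SMARCB1 Dox replicate 2. Over the alternatives the difference lay between -0.60 and -0.40. UQCRC1 and NDUFB5 were not called in this test (0.25 and -0.27, edgeR, adjusted p 0.276 and 0.228).

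**Figure D3:**
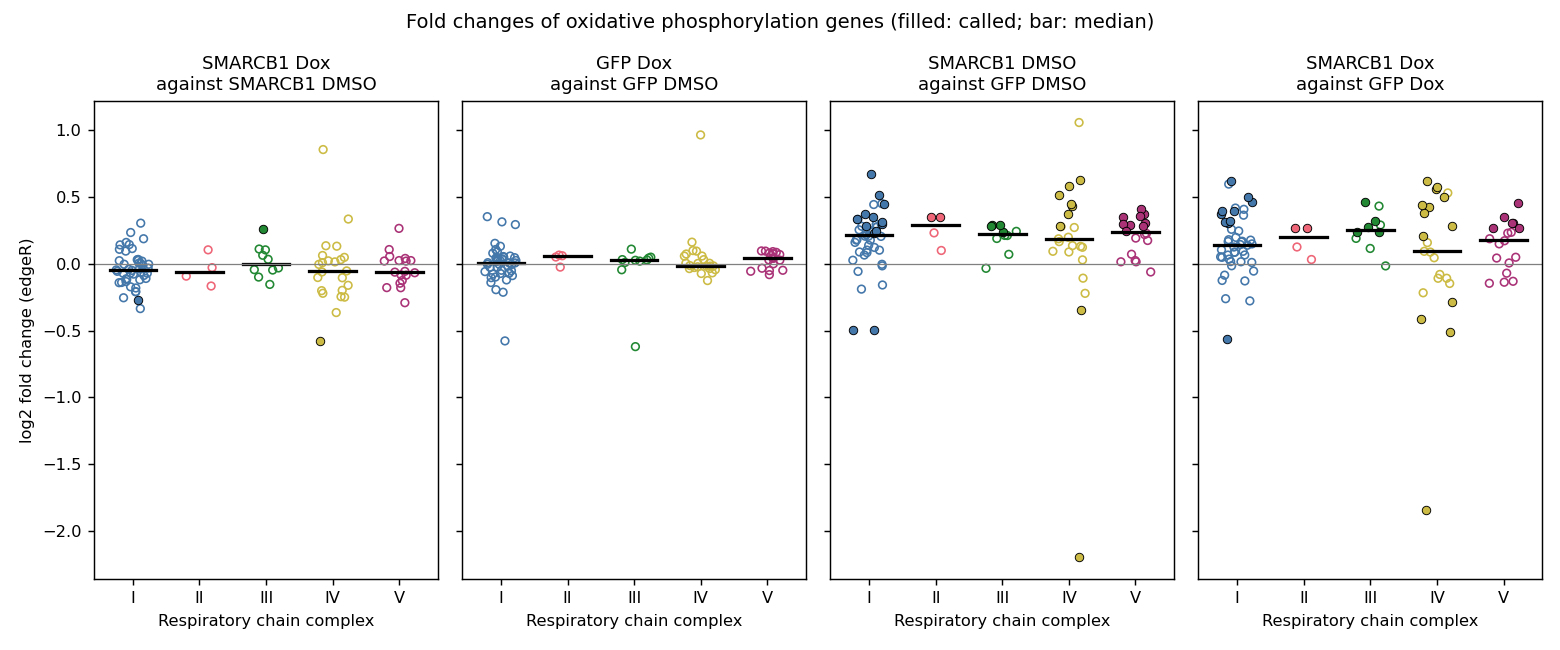
Log2 fold changes of the 100 tested genes by complex in 4 comparisons (open circles, not called, filled circles, called, bars, medians). The Dox effects center on 0 in both lines, with 3 and 0 genes called, whereas the ratios between the lines are shifted upwards in all complexes and COX6B2 lies far below, at -2.19 and -1.84.

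The larger differences were those between the lines. Without Dox, 33 of the 100 genes were higher and 4 lower in the SMARCB1 line than in the GFP line, 37% in all against 32% of all genes tested. The share called higher, 33%, stood against 16.3% of all genes, and the share called lower, 4%, against 15.7%. The median log2 ratio was 0.22, against 0.01 for all genes, and 87 genes had a positive ratio. With Dox in both lines, 31 genes were higher (against 19.6% of all genes) and 5 lower (against 19.2%), 36% in all against 38.8%, with a median of 0.16 against 0.01 and 78 genes positive. These comparisons share no library with each other, but each shares its libraries with the Dox effects above. Among the 78 subunits, 74 had a positive ratio without Dox and 65 with Dox. By complex, the median ratios without and with Dox were 0.22 and 0.14 (complex I), 0.29 and 0.20 (II), 0.23 and 0.25 (III), 0.19 and 0.09 (IV) and 0.24 and 0.18 (V). Assembly factors were nearer to 0, with medians of 0.09 in both comparisons over 17 genes.

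The size of this shift depended on the scaling. With library totals in place of TMM, 9 genes were higher and 5 lower without Dox, a share of higher calls of 64.3% in place of 89.2%, and the median was 0.11, beside -0.10 for all genes. Relative to the median of all genes, the shift was 0.21 under either scaling. With Dox, library totals gave 24 higher and 5 lower genes. Mitochondrially encoded reads, which take part in library totals, were most abundant in SMARCB1 DMSO replicate 1. As a share of counts of nuclear genes, the members took 0.614% to 0.655% in the SMARCB1 line and 0.558% to 0.582% in the GFP line, without overlap. With totals of nuclear genes, 27 were higher and 5 lower without Dox. Single libraries also mattered, since 14 genes were called without GFP DMSO replicate 2 in the comparison without Dox. In the comparison with Dox, 21 were called without SMARCB1 Dox replicate 1, 20 without GFP Dox replicate 1 and 19 without GFP Dox replicate 2.

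A total of 21 genes were called higher in both comparisons, 63.6% of the list without Dox and 67.7% of the list with Dox, and 3 were called lower in both (75% and 60%). The like shares of the lists of all genes were 72.0% and 59.9% (higher) and 72.7% and 59.5% (lower). Of the 100 genes tested, 21% were thus called higher and 3% lower in both, against 11.7% and 11.4% of all genes. In 42 of the 100 genes all 4 libraries of the SMARCB1 line lay above all 4 of the GFP line, and in 5 genes they lay below, against 20% and 19.4% of all genes. Across the 100 genes, the ratios with and without Dox correlated with Pearson's r of 0.83 and Spearman's rho of 0.66, which describes genes of the same cell lines and not independent replicates. When each ratio was set against the median of all tested genes on its chromosome, the median was 0.19 without Dox (83 genes positive) and 0.14 with Dox (76 positive).

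**Figure D4:**
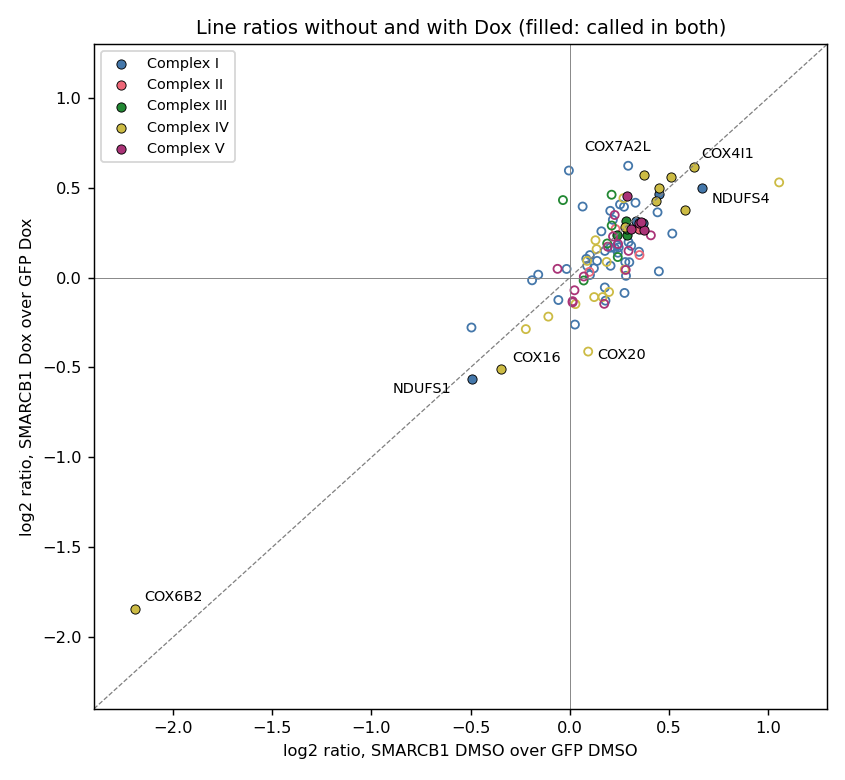
Log2 ratio of the SMARCB1 line over the GFP line without Dox (x axis) and with Dox (y axis) for the 100 tested genes, colored by complex and filled where called in both comparisons in the same direction. Most genes lie in the upper right, with 73 positive in both, and COX6B2, NDUFS1 and COX16 are the 3 filled points in the lower left.

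Complex IV held several of the larger called ratios. COX4I1, the ubiquitous form of subunit 4, through which ATP regulates the enzyme, lies on chromosome 16 (85798633 to 85807068). It had 32.5 and 33.4 CPM in SMARCB1 DMSO and 36.8 and 31.4 in SMARCB1 Dox, whereas GFP DMSO had 21.6 and 21.1 CPM and GFP Dox 21.6 and 22.8 CPM. The lines did not overlap, with log2 ratios of 0.63 without Dox and 0.62 with Dox (SE 0.10 for each, edgeR, adjusted p 3.49e-05 and 3.17e-05). COX7A2L, which joins complexes III and IV into supercomplexes, lay at 72.6 to 78.2 CPM in the SMARCB1 line and 48.3 to 56.0 CPM in the GFP line, with log2 ratios of 0.51 and 0.56. COX8A, whose start carries the ETS motif shown above, lay at 48.6 to 56.0 CPM against 36.7 to 39.95 CPM (0.45 and 0.50). COX6B1, which links the monomers of the enzyme on its outer face, lay at 131 to 137 CPM against 94.1 to 103 CPM (0.43 in each comparison). For COX4I1, COX7A2L, COX8A and COX6B1, both calls held under all 14 alternatives. COX6C (0.58 and 0.38), COX5B (0.37 and 0.57) and COX6A1 (0.28 and 0.28) were also called in both. The call of COX5B without Dox was kept under 8 of 14 alternatives (0.20 to 0.52), and that of COX6A1 under 11. COX8A shares 35.4% of its exonic bases with another gene on the same strand, and the pseudogenes of COX6C held 1 count.

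Complex IV also held the called gene that differed most in the other direction. COX6B2 (chromosome 19, 55349306 to 55354719) had 0.994 and 0.940 CPM in SMARCB1 DMSO and 1.15 and 1.29 CPM in SMARCB1 Dox. In GFP DMSO it had 4.14 and 4.71 CPM, and in GFP Dox 4.999 and 3.80 CPM. The lines did not overlap, and the log2 ratios were -2.19 and -1.84 with standard errors of 0.24 and 0.23 (edgeR, adjusted p 2.5e-07 and 1.21e-06), called under all 14 alternatives. It is thus the form that was lower in the SMARCB1 line, whereas COX6B1 was higher, but in each line COX6B1 was the more abundant, at 85.1 against 0.740 CPM per kb of exon over all libraries. COX6B2 shares 29.1% of its exonic bases with an unnamed gene on the same strand. The assembly factor COX16 (11.6 and 10.5 CPM in SMARCB1 DMSO, 14.4 and 13.6 in GFP DMSO) had log2 ratios of -0.35 and -0.51. It shares 37.8% of its exonic bases with SYNJ2BP and the readthrough SYNJ2BP-COX16, and its ratio without Dox was called under 8 of 14 alternatives. With Dox, COX20 (-0.41) and COX15, which makes heme A for complex IV (-0.29), were also lower in the SMARCB1 line. The call of COX20 was lost without GFP Dox replicate 1 (log2 ratio -0.31, edgeR, adjusted p 0.0711).

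In complex I, 11 of 45 tested genes were higher (24.4%, against 16.3% of all genes) and 2 lower without Dox. With Dox 9 were higher and 1 lower, and the share higher, 20%, was near the 19.6% of all genes. NDUFS4, an accessory subunit near the electron input that is mutated in Leigh syndrome, lies on chromosome 5 (53560633 to 53683338). It had 9.94 and 11.6 CPM in SMARCB1 DMSO and 10.00 and 9.81 CPM in SMARCB1 Dox, against 6.87 and 6.67 CPM in GFP DMSO and 6.59 and 7.43 CPM in GFP Dox. The lines did not overlap, and the log2 ratios were 0.67 and 0.50 (SE 0.14 for each, edgeR, adjusted p 0.000734 and 0.00718). NDUFA1, an X-linked membrane arm subunit, lay at 33.1 to 39.7 CPM in the SMARCB1 line and 22.9 to 31.2 CPM in the GFP line, with ratios of 0.45 and 0.46. NDUFA5 (0.33 and 0.31) and NDUFC1 (0.37 and 0.30) were called in both comparisons as well. NDUFAF7, a methyltransferase that acts in complex I assembly, was higher without Dox (0.52), and NDUFAF8, NDUFS7, NDUFS8 and NDUFB2 were higher with Dox (0.62, 0.39, 0.40 and 0.37). NDUFAF8 kept this call under 8 of 14 alternatives (0.39 to 0.82), NDUFS7 and NDUFAF7 kept theirs under 11, and NDUFS8 and NDUFB2 under 12.

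NDUFS1, the largest subunit of complex I and the carrier of several of its iron-sulfur clusters, went the other way. It lies on chromosome 2 (206114817 to 206159509) and had 175 and 178 CPM in SMARCB1 DMSO and 164 and 185 CPM in SMARCB1 Dox, against 236 and 261 CPM in GFP DMSO and 258 CPM in each GFP Dox library. All 4 libraries of the SMARCB1 line were below all 4 of the GFP line, with log2 ratios of -0.49 and -0.56 (SE 0.08, edgeR, adjusted p 7.53e-05 and 1.14e-05), called under all 14 alternatives. Of the 78 subunits it was the only one called lower in either comparison. The assembly factor NDUFAF5 was lower without Dox, at 5.97 and 6.18 CPM against 9.12 and 8.05 CPM (-0.50), and was not called with Dox (-0.28, edgeR, adjusted p 0.149).

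In complexes II and III, the ratios were modest. SDHB, the iron-sulfur subunit of succinate dehydrogenase, was called higher in both comparisons, at 69.4 and 69.9 CPM in SMARCB1 DMSO against 54.7 and 54.6 CPM in GFP DMSO (0.35) and with a ratio of 0.27 in Dox. The membrane anchor SDHD was called without Dox (0.35) and the flavoprotein SDHA with Dox (0.27), whereas the second anchor SDHC, at 129.8 to 147 CPM, was called in neither (0.10 and 0.03). CYC1 (222 and 231 CPM in SMARCB1 DMSO, 183 and 188 CPM in GFP DMSO) had ratios of 0.29 and 0.27, and the Rieske protein UQCRFS1 had ratios of 0.29 and 0.24. With Dox, the call of SDHA was kept under 6 of 14 alternatives, that of UQCRFS1 under 9 and that of SDHB under 10. The ratio of UQCRC1 was called only with Dox, at 0.46 (SE 0.08, edgeR, adjusted p 8.79e-05), and was 0.21 without it (adjusted p 0.0513).

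In complex V, 9 of 18 tested genes were higher without Dox (50%, against 16.3% of all genes) and 6 with Dox (33.3%, against 19.6%), and each call was in that direction (DESeq2 called 8 and 5, all higher). For ATP5F1B, the SMARCB1 DMSO libraries had 335 and 365 CPM and the SMARCB1 Dox libraries 354 and 357 CPM, GFP DMSO had 268 and 282 CPM, and GFP Dox had 286 and 291 CPM, with log2 ratios of 0.35 and 0.30. Its partner in the catalytic hexamer, ATP5F1A, overlapped between the lines, at 170.1 to 195 CPM against 172 to 189 CPM, with ratios of 0.07 and 0.01. The delta subunit ATP5F1D lay at 33.0 to 46.1 CPM against 27.4 to 31.2 CPM (0.29 and 0.46), and its call without Dox was kept under 8 of 14 alternatives. The 3 genes that encode the same c subunit of the membrane rotor, ATP5MC1, ATP5MC2 and ATP5MC3, were not called, with ratios between -0.14 and 0.19. ATP5ME had a ratio of 0.41 without Dox, but 61.3% of its exonic bases lie opposite MYL5. ATP5IF1 ranged from 59.7 to 66.8 CPM over all 8 libraries (-0.06 and 0.05).

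Other genes of the pathway, taken as lists from its textbook parts, were read from the same fit. Of 44 assembly factors outside the naming rule, 5 were called in SMARCB1 Dox, each of them lower (11.4%, against 5.69% of all genes called lower and 8.33% called higher). The median log2 fold change of the 44 was -0.08. LYRM7, an assembly factor that binds the Rieske protein of complex III, fell from 61.8 and 59.2 CPM to 41.8 and 42.8 CPM. The GFP DMSO libraries had 51.5 and 52.1 CPM. Its log2 fold change of -0.52 (standard error 0.08, edgeR, adjusted p 0.000132) held under all 14 alternatives, and its Dox effect also differed between the lines (-0.46, adjusted p 0.0217), a call kept under 9 of 17 alternatives. The others were COA4 (-0.41), the ATP synthase factor ATPAF2 (-0.37), SDHAF3 (-0.33) and the complex I factor TIMMDC1 (-0.31). For ATPAF2, too, the Dox effect differed between the lines (-0.51), a call kept under 10 of 17 alternatives. In the test of this difference, 2 of the 44 were called (4.55%, against 4.71% of all genes). Between the lines, 7 of these 44 were higher and 3 lower without Dox (15.9% and 6.82%, against 16.3% and 15.7% of all genes). With Dox 4 were higher and 10 lower (9.09% and 22.7%, against 19.6% and 19.2%).

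Genes that feed or regulate the chain were called in both directions. Of 17 genes of the citric acid cycle and the pyruvate dehydrogenase complex, 3 rose with SMARCB1 and 1 fell (17.6% and 5.88%, against 8.33% and 5.69% of all genes). OGDH, the E1 subunit of 2-oxoglutarate dehydrogenase, rose from 63.0 and 63.2 CPM to 89.2 and 91.3 CPM (log2 fold change 0.52, standard error 0.08, edgeR, adjusted p 8.15e-05), below the 126 and 132 CPM of GFP DMSO, and its Dox effect differed between the lines (0.43, adjusted p 0.0227), a call kept under 12 of 17 alternatives. PDHB (0.41) and SUCLA2 (0.32) rose, and SUCLG2, the GTP-specific counterpart of SUCLA2, fell (-0.45, edgeR, adjusted p 0.00101). The Dox effect of SUCLG2 differed between the lines (-0.50, edgeR, adjusted p 0.017), a call kept under 11 of 17 alternatives. Those of PDHB and SUCLA2 were not called (edgeR, adjusted p 0.236 and 0.257). Between the lines, 2 of these 17 were higher and 4 lower without Dox (11.8% and 23.5%, against 16.3% and 15.7% of all genes). With Dox 3 were higher and 3 lower (17.6% each, against 19.6% and 19.2%). OGDH (-1.04), PDHB (-0.61) and SUCLA2 (-0.36) were among those lower without Dox. Of 19 regulators of mitochondrial biogenesis and mitochondrial transcription, 17 were tested and 3 called with SMARCB1 (17.6%, near the 14% of all genes). POLRMT, the mitochondrial RNA polymerase, rose (0.40), and MTERF3 (-0.58), a repressor of mitochondrial transcription, and GABPA (-0.29), the DNA-binding subunit of GABP, fell. GABPA kept its call under 9 of 14 alternatives. In the test of the difference between the Dox effects, 1 of the 17 was called (5.88%, against 4.71% of all genes). It was MTERF3 (-0.62, edgeR, adjusted p 0.00555), and this call was kept under all 17 alternatives. The differences of POLRMT and GABPA were not called (edgeR, adjusted p 0.257 and 0.0886). PPARGC1A and ESRRG did not pass the filter. Between the lines, 2 of the 17 were higher and 2 lower without Dox (11.8% each, against 16.3% and 15.7% of all genes). With Dox 2 were higher and 5 lower (11.8% and 29.4%, against 19.6% and 19.2%). PPARGC1B and ESRRA, a coactivator and a nuclear receptor that act on genes of oxidative phosphorylation, were higher without Dox (0.58 and 0.49) and with Dox (0.53 and 0.73). YY1 (-0.39 and -0.52) and PPRC1 (-0.25 and -0.22) were lower in both comparisons. GABPA (-0.43), MTERF3 (-0.43) and MTERF2 (-0.35) were called lower with Dox only. Of 8 carriers and translocases 7 were tested and 1 was called with SMARCB1, which was higher (14.3%, against 8.33% of all genes). It was SLC25A4, the muscle form of the ADP/ATP carrier (0.46), whose difference between the Dox effects was not called (edgeR, adjusted p 0.222). Between the lines, 3 were higher and 1 lower without Dox (42.9% and 14.3%, against 16.3% and 15.7%). With Dox 2 were higher and 3 lower (28.6% and 42.9%, against 19.6% and 19.2%). SLC25A4 was higher in both comparisons (0.65 and 1.08), whereas SLC25A5 was lower in both (-0.23 and -0.35). Of 13 genes of ubiquinone synthesis 0 were called with SMARCB1 by edgeR (2 at an unadjusted p under 0.05) and 0 by DESeq2, against 14% of all genes. Between the lines without Dox 0 were called by edgeR (3 at an unadjusted p under 0.05) and 0 by DESeq2, against 32%. With Dox, COQ5 (0.60) and COQ4 (0.47) were higher and PDSS1 (-0.44) and COQ8B (-0.40) lower. These are 15.4% in each direction, against 19.6% and 19.2% of all genes, and DESeq2 called 2 higher and 1 lower. Of 78 mitochondrial ribosomal protein genes, 3 were called with SMARCB1, each of them lower (3.85%, against 5.69% of all genes): MRPL3, MRPL57 and MRPL42, with log2 fold changes between -0.32 and -0.29. Between the lines, 8 of these 78 were higher and 3 lower without Dox, and 8 higher and 7 lower with Dox, with medians of 0.08 and 0.03. These shares, 10.3% and 3.85% without Dox and 10.3% and 8.97% with Dox, were each below those of all genes.

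The 13 subunits encoded in mitochondrial DNA were set beside the nuclear ones. With SMARCB1, 6 of them (46.2%, against 5.69% of all genes) fell (median -0.32), and DESeq2 called 10 lower. In the GFP line 12 of the 13 had a negative log2 fold change with Dox (median -0.10), with 0 called by edgeR or DESeq2 and 0 at an unadjusted p under 0.05. In the test of the difference between the Dox effects 0 were called by edgeR or DESeq2 (1 at an unadjusted p under 0.05, median -0.22). Between the DMSO groups 11 were higher in the SMARCB1 line (84.6%, against 16.3% of all genes, median 0.45). Summed over each library, their CPM was 63.1 times that of the 108 nuclear genes in SMARCB1 DMSO replicate 1 and 47.9 times in replicate 2. In the 6 other libraries the ratio lay between 40.03 and 47.7, so that 1 library stood apart. Of the 6 falls, MT-ATP8 (-0.41) kept its call under 11 of 12 alternatives, and the other 5 under 6 or 7. Without SMARCB1 DMSO replicate 1, 1 of the 13 was called lower with SMARCB1 (median -0.17), and without SMARCB1 DMSO replicate 2, 11 were (median -0.46). Leaving out SMARCB1 Dox replicate 1 gave 2 called lower, and leaving out SMARCB1 Dox replicate 2 gave 1 lower and 1 higher. Between the DMSO groups, 8 were called higher without SMARCB1 DMSO replicate 1 (median 0.31).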

How the data were processed

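RNA of 8 G401 libraries was measured as read counts per gene. The deposited values were raw counts, produced by the authors with STAR and HTSeq on hg38 according to the submitters' processing notes. The methods name exon counting in intersection-strict mode with GENCODE v42, so that reads shared by overlapping genes or reaching outside exons were not assigned. The methods also state that 6 plates were pooled per condition. Versions and the strand option were not given in the sources used here. The labels name a ribosome profiling library kit and the methods a directional total RNA kit, so the library chemistry was uncertain. In each library, 5 entries that name no gene held 27% to 29.3% of the reads and entered neither library sizes nor tests.

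Symbols, positions, exonic length and GC content came from GENCODE v44 (GRCh38), which matched 62625 of 69215 identifiers. edgeR (4.0.16, R 4.3.3) was fitted to the counts of all 8 libraries, with 1 mean per group, the default expression filter (15931 genes), TMM scaling and quasi-likelihood F tests, with Benjamini-Hochberg adjustment within each of 5 comparisons and calls at an adjusted p under 0.05. DESeq2 (1.42.0), which the study used, served as an alternative, besides other filters and scalings, a GC correction, a replicate block, a fit of only the groups compared and leaving out each library. Steps were tested on simulated counts. The members, lists and motifs were chosen with earlier results of these data known. Genes named are those called, at most 15 per direction and comparison by size of change at a mean of at least 1 CPM, the isoform pairs, complex II, CYC1, UQCRFS1, ATP5IF1, ATP5F1A and ATP5F1B, the highest and lowest per kb of exon and those untested. NDUFA4, an isoform partner, was described for its adjusted p after its values were seen. Nothing in the sources used here says that replicates came from separate cultures, so that p-values measure only the spread between these libraries, which may be technical. The 95% intervals of fold changes come from edgeR's standard errors and include the spread between libraries. Limits from a count of 0 cover counting error only, since PCR copies are not independent molecules. Promoter windows came from RefSeq (GRCh38.p14).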

Additional observations from a re-analysis of the deposited data

Results flagged for a closer look

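COX20 stood out because its response to Dox differed between the lines when that difference was tested directly. Its log2 fold change with Dox was -0.58 with the SMARCB1 transgene and -0.07 with GFP, and the difference was -0.50 (standard error 0.14, edgeR, adjusted p 0.0453). The call was lost under 11 of 17 alternatives. The SMARCB1 Dox libraries, at 19.1 and 21.5 CPM, lay below each of the 6 other libraries. DESeq2 gave an adjusted p of 0.0526 for the same difference. HNRNPU, which lies opposite 76.6% of the exonic bases of COX20, had a difference of 0.02 (edgeR, adjusted p 0.964), and the part of its reads in the counts of COX20 was not tested.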

How the results depend on the processing

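No called member or called gene of the other lists changed direction, in any of the 5 comparisons, under the alternatives run. For SMARCB1 Dox against SMARCB1 DMSO, 3 members were called and the median log2 fold change was -0.05. The count was 1 with only the groups compared and with the GC correction, and 1 to 5 when 1 library was left out. The median was 0.0465 with library totals, -0.00373 with the GC correction, -0.00628 with the GC correction and the replicate block together, and -0.0777 to 0.00333 with 1 library left out. For GFP Dox against GFP DMSO the count was 0 throughout, and the median lay between -0.0419 and 0.0505 with 1 library left out. For the difference of the Dox effects, the count of 1 became 0 with library totals, nuclear totals, DESeq2 and the GC correction, and was 0 to 1 with 1 library left out. The median of this difference, -0.06, became 0.0181 with library totals and lay between -0.0986 and 0.00308 with 1 library left out. For SMARCB1 DMSO against GFP DMSO, 37 members were called and the median was 0.22. Library totals gave 14 and 0.11, and leaving out 1 library gave 14 to 29 calls and medians of 0.18 to 0.25. For SMARCB1 Dox against GFP Dox, 36 members were called and the median was 0.16, and leaving out 1 library gave 19 to 32 calls and medians of 0.12 to 0.23. Leaving out a library leaves fewer samples, and for the other changes the cause was not tested. The scaling to nuclear totals was added after the data were seen.

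The replicate numbers of the labels were checked for pairing. Deviations of same-numbered libraries from their group means had correlations of 0.03 to 0.15 across 15931 genes, all of them positive. Of 6 pairs of groups 1 exceeded 0.1, and it was SMARCB1 DMSO with SMARCB1 Dox (0.15). In the main fit the numbers were taken as names only. With the replicate block, 6 members were called in SMARCB1 Dox against SMARCB1 DMSO (2 higher and 4 lower), and the counts in the line comparisons were 46 and 41.

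With 2 libraries per group, standard errors of the log2 fold changes with SMARCB1 lay between 0.08 and 0.73 (median 0.10), and 89 of 100 intervals lay within 1.5-fold.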
